A study of Mus musculus with 2 samples.

Results

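Bile duct spots of portal tracts were the spatial spots in which the unique molecular identifiers (UMIs, each standing for 1 captured molecule) of Spp1, Epcam, Krt7 and Krt19 summed to 6 or more. Among spots with at most 50000 UMIs, 296 of 4472 met this rule, 182 of 2309 in the AEG-1-WT liver (hereafter WT) and 114 of 2163 in the AEG-1-C75S liver (C75S). The series held 4483 spots in all. The members were therefore chosen by their counts of these 4 genes, and the levels of the 4 genes below only describe what was selected.

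RNA was measured on sections of formalin-fixed liver embedded in paraffin. The Visium assay for such tissue ligates pairs of probes on the transcripts and captures them on barcoded spots of a slide. Each genotype had 1 section of 5 μm from 1 female, 8-week-old, naïve and untreated mouse, and the mice were littermates whose livers were taken from identical lobes. AEG-1 (encoded by Mtdh) is palmitoylated at 1 cysteine, and in AEG-1-C75S mice a knock-in replaces this cysteine by serine in every cell, while AEG-1-WT mice carry the wild-type protein. With 1 animal per genotype the genotype, the animal and the section cannot be told apart, so no difference between the sections was tested, and all intervals cover counting error only.

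A portal tract is the connective tissue sleeve at the corner of a liver lobule that carries a branch of the portal vein, a branch of the hepatic artery, lymphatic vessels and 1 or more bile ducts. Bile ducts are tubes of cholangiocytes, polarized epithelial cells that rest on a laminin basement membrane, carry a primary cilium and modify bile. Their fate during development depends on Notch signals from the portal mesenchyme and on transcription factors such as Sox9. A Visium spot is wider than a small duct, so each member spot is a small region that also held hepatocytes, vessels and stroma, and fewer cells of a type and less RNA per cell cannot be told apart in it.

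The rule genes lie on separate chromosomes of the mouse genome (GRCm38, the build called mm10 by the submitters). Spp1, which encodes the secreted phosphoprotein osteopontin, is at chr5:104435111-104441053. Epcam, an epithelial adhesion molecule, is at chr17:87635979-87651127. The keratin genes Krt7 and Krt19, which encode cytoskeletal proteins of simple ductal epithelia, are at chr15:101412403-101427806 and chr11:100140810-100145926. Sox9, which is a marker of the same cells but was not part of the rule, is at chr11:112782210-112787757.

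Member spots made up 7.88% of the spots of the WT section (95% Clopper-Pearson interval 6.82 to 9.06) and 5.27% of the C75S section (4.37 to 6.30). They were deeper than the remaining spots, with a median of 19606 UMIs against 16648 in WT and 25169.5 against 18599 in C75S. The depth of member spots ranged from 9270 to 49781 UMIs in WT and from 4277 to 49504 in C75S. A rule that scaled with depth, 3 or more UMIs of the 4 genes per 10000, gave 7.10% (6.09 to 8.23) and 5.92% (4.96 to 7.0), so the sections were closer when depth was taken into account and these intervals overlapped. It kept 82.4% of the WT members and 71.1% of the C75S members. At a stricter sum of 10 or more the shares were 5.11% and 2.82%. The slides use the same set of barcodes, each marking a position, and 1896 barcodes occurred in both sections. Of these positions, 7 were members in both.

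Spp1 supplied most of the signal that selected the spots. In WT it gave 2818 of the 3125 rule UMIs in member spots, and in C75S 1592 of 1711, shares of 90.2% and 93.0%. Epcam had 159 UMIs in the WT and 79 in the C75S members, Krt7 106 and 31, and Krt19 42 and 9. Spp1 was not limited to members, since 47.2% of the other WT spots and 49.6% of the other C75S spots held at least 1 UMI of it. Member spots held 61.9% of the WT section's rule UMIs and 46.8% of the C75S section's.

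The rule sum had no gap at the threshold. Just inside it, at 6 or 7 UMIs, were 36 WT and 40 C75S spots. Just outside it, at 4 or 5 UMIs, were 96 and 92 spots. The median member had 12.5 rule UMIs in WT and 10 in C75S, with a highest value of 95 and 110. The spots near the threshold were similar in number in both sections, and WT had more spots than C75S from 8 UMIs on, with 28 against 13 at 8 or 9, 67 against 34 at 10 to 19 and 51 against 27 at 20 or more.

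**Figure D1:**
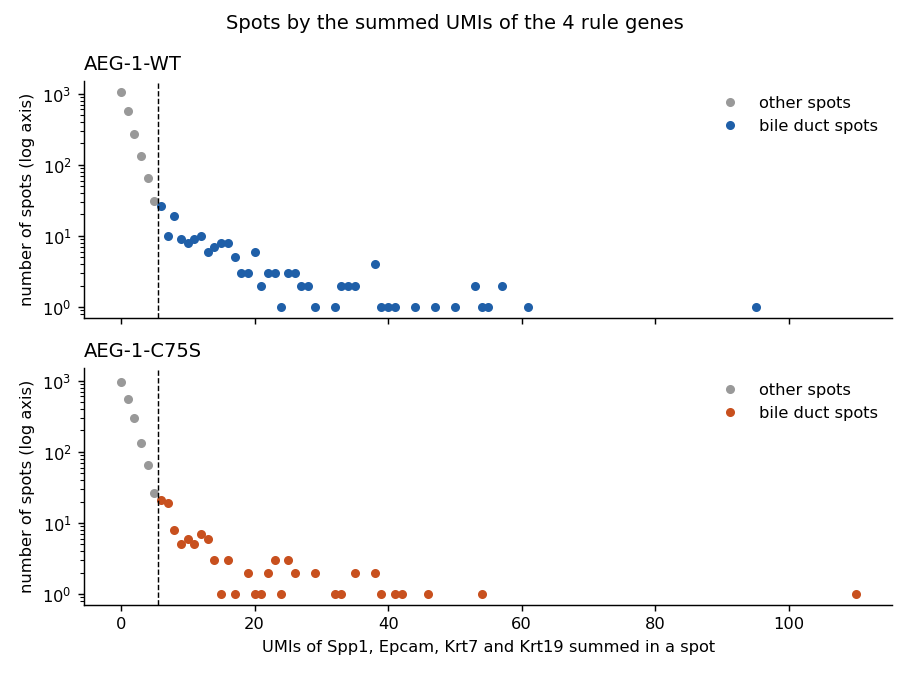
Number of spots (log axis) at each sum of the UMIs of Spp1, Epcam, Krt7 and Krt19 in the WT (top) and C75S (bottom) section, grey for other spots and coloured for bile duct spots, with the threshold dashed. Counts decline without a gap across the threshold, and the upper tail reaches 95 UMIs in WT and 110 in C75S.

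Sox9, which had not been used to choose the spots, went with their label. It had 162 UMIs in the WT members, 39.3 CPM (counts per 1000000 UMIs summed over the same spots), against 6.4 CPM in the other spots. In the C75S members it had 97 UMIs, 35.5 CPM against 7.01. The log2 ratio of members over other spots was 2.62 (2.32 to 2.91) in WT and 2.34 (1.99 to 2.68) in C75S. At least 1 UMI of Sox9 was present in 50.5% of the WT and 51.8% of the C75S members, against 10.3% and 11.8% of the other spots. With every spot thinned to 3000 UMIs, the shares were 13.7% and 15.8% of members against 2.36% and 1.86% of other spots, so the contrast held at equal depth. About as many members lacked a Sox9 UMI as had one.

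Several genes outside the rule were set against the rule sum from spot to spot. Sox9 was at 5.14 CPM in the WT spots with no rule UMI and at 10.2 CPM in those with 4 or 5. It reached 20.4 CPM at 6 or 7, 29.9 CPM at 10 to 19 and 71.9 CPM at 20 or more. The C75S section gave 4.36, 15.5, 26.2, 29.2 and 65.6 CPM at the same sums. At 3 rule UMIs it was at 11.2 CPM in WT and 10.9 CPM in C75S. The lowest and highest values of Sox9 were thus at the ends of the rule sum in both sections, while neighbouring groups were not always in order (WT at 3 and at 4 or 5, and the 13 C75S spots with 8 or 9), and spots just below the threshold were already above those with no signal. Cyp2e1, a cytochrome P450 of hepatocytes around the central vein, took the opposite course, from 8326 to 3080 CPM in WT and from 7647 to 3305 CPM in C75S between the spots with none and those with 20 or more. The keratin gene Krt8, also on the cholangiocyte list, was at 70.2 CPM in WT spots with none as with 6 or 7. In C75S it was at 59.5 and 60.4 CPM in these spots. At higher sums Krt8 was at 126 CPM (98.8 to 157) in WT spots with 8 or 9. At 20 or more it was at 102 CPM (84.4 to 122) in WT and 75.5 CPM (56.6 to 98.8) in C75S. Acta2 in WT was highest at 8 or 9 rule UMIs (62.0 CPM) and at 24.8 CPM at 20 or more.

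**Figure D2:**
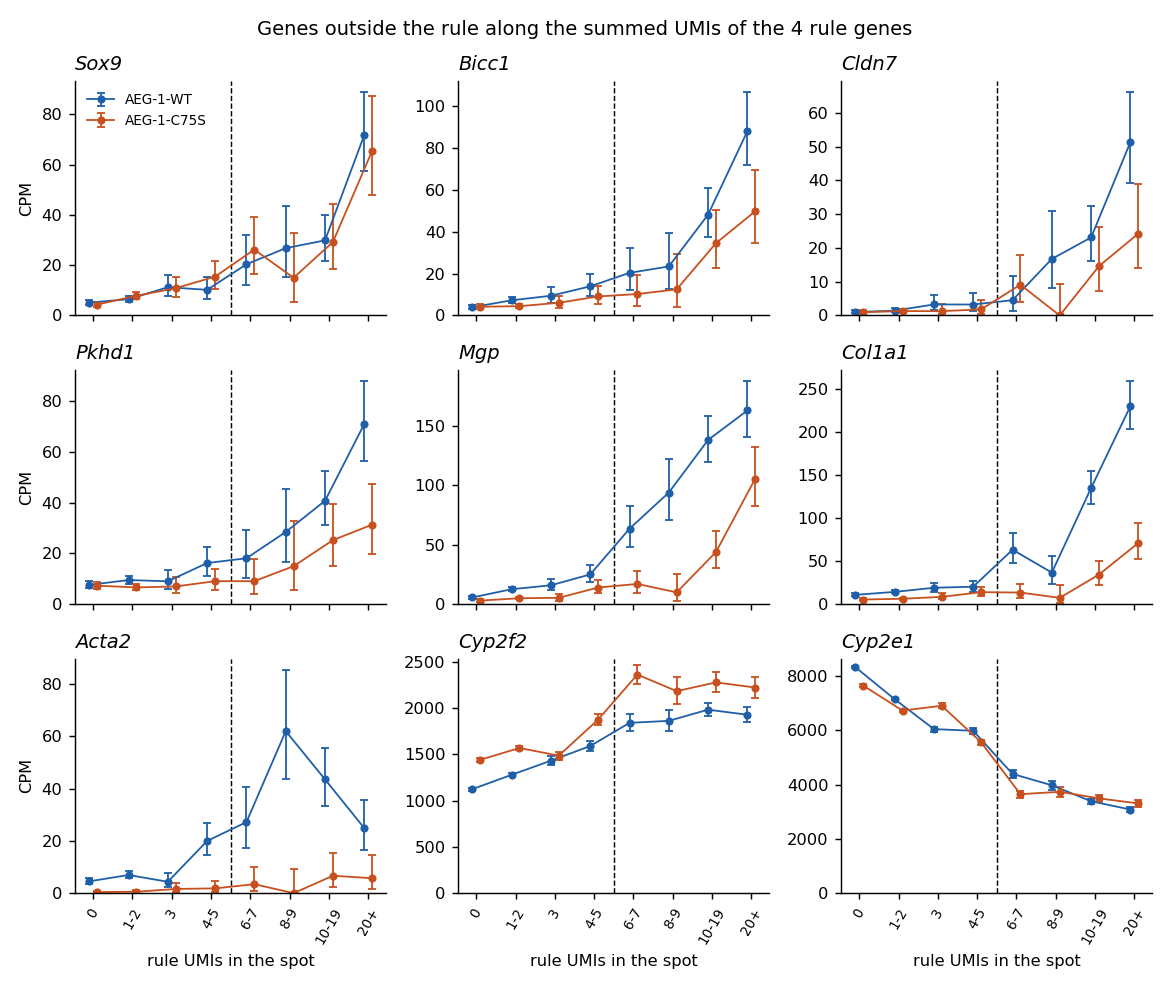
CPM of 9 genes that were not in the rule (one panel each) in spots grouped by their rule UMIs, WT in blue and C75S in orange, with 95% Poisson intervals for counting error and the threshold dashed; the C75S group at 8 to 9 UMIs held 13 spots. Sox9 reaches 71.9 and 65.6 CPM in the highest group, while Col1a1 reaches 230.3 CPM in WT and 71.3 in C75S.

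The 4 rule genes did not mark the same members. Spp1 alone selected 56 WT spots (30.8%, 24.2 to 38.0) and 49 C75S spots (43.0%, 33.7 to 52.6). At least 1 UMI of Epcam, Krt7 or Krt19 was present in 126 and 65 members, and 2 or more of these 3 genes in 55 and 13. Krt7 was detected in 40.7% of the WT and 16.7% of the C75S members, and Epcam in 48.4% and 48.2%. Spots selected on Spp1 alone had a lower rule sum, with a median of 8 in WT and 7 in C75S against 15 and 13, and carried less Sox9. Sox9 was at 23.2 CPM in the WT and 27.2 in the C75S spots of this kind, against 45.6 and 42.2 CPM in the spots with another rule gene. Without Spp1 and with 2 or more UMIs of the other 3 genes, 3.29% of the WT and 1.62% of the C75S spots would have been chosen.

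Across all genes, few stood apart between member and other spots. Of 11249 genes with at least 100 UMIs, 275 (2.44%) were more than 2-fold higher in members in both sections and 17 (0.151%) were more than 2-fold lower in both. The median log2 ratio of all these genes was 0.10 in WT and 0.02 in C75S. Since the same counts chose the members, these numbers describe the region and were not tested.

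The gene lists that follow were written from general knowledge of liver cell types, but with earlier results of these data known. The shares above are the background for each count. Of 24 measured cholangiocyte genes outside the rule, 14 were more than 2-fold higher in members of both sections, and the list's median log2 ratio was 1.5 in WT and 1.24 in C75S. None was 2-fold lower. The claudin Cldn7, a tight junction protein, was at 26.2 CPM in the WT members against 1.47 elsewhere, a log2 ratio of 4.16 (3.68 to 4.65). In C75S it was at 13.2 against 1.18 CPM, a ratio of 3.48 (2.81 to 4.14). The epithelial transcription factor Ehf had ratios of 4.03 and 3.04, the tetraspanin Tspan8 4.03 and 3.69, and the RNA-binding protein Bicc1, which is needed for normal renal and biliary tubules, 3.0 and 2.54. Genes of the list that hepatocytes also express stood much closer to the other spots, such as the chaperone Clu, the list's most abundant gene, at 0.47 and 0.40.

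Genes named only by the size of the difference included further epithelial genes. Kcne3, a potassium channel subunit of secretory epithelia, was at 26.2 CPM in the WT and 14.6 in the C75S members, with log2 ratios over the other spots of 3.88 and 3.57. Scara3, a scavenger receptor family member, had ratios of 3.5 and 3.54. Plet1 had 3.79 and 3.33, and the phosphatase inhibitor Ppp1r1b 3.56 and 3.38. The laminin chain Lamc3, a basement membrane component, had 3.65 and 3.21. The 20 genes highest in both sections also included genes of stroma and vessel walls.

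Of 10 measured transport genes 1 was more than 2-fold higher in both sections, Slc5a1, a sodium-glucose cotransporter that recovers glucose from bile, with 57 and 30 UMIs in members and log2 ratios of 3.21 and 2.67. Cftr, the chloride channel of the duct, had 8 UMIs in the WT and 4 in the C75S members against 1 and 2 in all other spots, too few to be ranked. Aqp1, a water channel also abundant in endothelium, had ratios of -0.11 and -0.01.

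Genes of the primary cilium and of polycystic disease were higher for 5 of 14 measured, with a list median of 1.21 in WT and 0.69 in C75S. Kif12, a kinesin whose loss causes cholestasis, had log2 ratios of 3.41 and 3.95. Glis3, a zinc finger factor linked to cystic disease, had 2.55 and 2.80, and Pkhd1, the gene of recessive polycystic kidney and liver disease, 2.25 and 1.5. In the Notch pathway 4 of 14 genes were higher: the ligand Jag1 (1.59 and 1.25), the receptor Notch3 of mural cells (2.14 and 2.31), and the targets Heyl (1.30 and 1.48) and Nrarp (1.06 and 1.47). The target Hes1 had 0.37 and 0.65. Of the YAP and TGF-beta genes, 2 of 11 were higher, the matricellular protein Ccn2 (2.63 and 1.78) and the integrin subunit Itgb8 (3.38 and 3.20). Of 12 basement membrane and integrin genes 2 were higher, the laminin chains Lama5 (1.51 and 1.03) and Lamb2 (1.64 and 1.32).

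The stroma of the tract was the other main component. Of 25 measured portal fibroblast and matrix genes, 16 were more than 2-fold higher in members of both sections, with a median log2 ratio of 2.28 in WT and 1.18 in C75S. Mgp, the matrix Gla protein that inhibits calcification, was at 123 CPM in the WT members against 10.4 elsewhere, and at 46.1 against 4.78 CPM in C75S. The elastic fibre gene Mfap4 had log2 ratios of 3.29 and 3.23, and dermatopontin (Dpt) 2.96 and 2.76. The complement component C7 had 3.53 and 2.95, the secreted Wnt antagonist Sfrp1 4.22 and 2.83, the tetranectin gene Clec3b 3.99 and 2.83, and fibulin 1 (Fbln1) 3.45 and 2.43. Fibromodulin (Fmod) had 2.77 and 2.66, gelsolin (Gsn) 3.18 and 2.58, and the fibrillar collagen Col1a1 3.29 and 2.32. Of 9 smooth muscle genes 4 were higher, among them Acta2, the actin of vascular smooth muscle, with 2.56 and 2.77. Of 13 portal and arterial endothelial genes 4 were higher, including Vwf (1.79 and 1.58) and the arterial connexin Gja5 (3.08 and 2.95). Of 5 lymphatic genes 1 was higher, Mmrn1 (3.86 and 2.42).

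**Figure D3:**
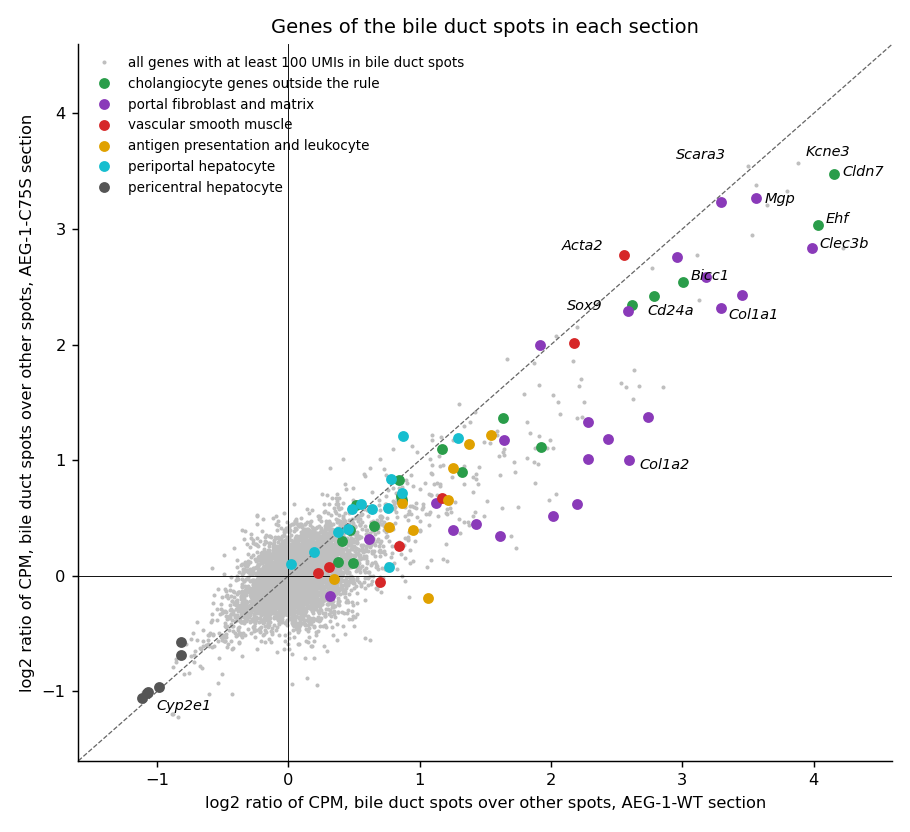
Log2 ratio of CPM in bile duct spots over other spots, WT on the x axis and C75S on the y axis, each dot a gene with at least 100 UMIs in bile duct spots, lists coloured and the dashed line marking equal ratios. Ductal and stromal genes lie at the upper right, and Col1a2 lies far below the line (2.59 in WT, 1.0 in C75S).

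Of 17 antigen presentation and leukocyte genes, 4 were more than 2-fold higher in both sections, with a list median of 1.06 in WT and 0.40 in C75S. The class II gene H2-Eb1 had log2 ratios of 1.54 and 1.22, the class II transactivator Ciita 2.06 and 1.08, and the dendritic cell lectin Cd209a 2.69 and 2.07. The invariant chain Cd74 was at 752 and 577 CPM in members against 324 and 365 CPM elsewhere. None of 11 Kupffer cell genes was higher, and the list's median was -0.28 and -0.22. None of 10 sinusoidal endothelial genes (-0.21 and -0.13) and none of 10 stellate cell genes (-0.02 and -0.22) was higher either. Mesothelial markers were weak but higher in members, at 15.8 against 1.94 CPM in WT (log2 ratio 3.02, 2.52 to 3.52) and 4.39 against 1.88 CPM in C75S (1.23, 0.21 to 2.12). They had 65 UMIs in the WT and 12 in the C75S members over 9 genes, of which Gpm6a, also a neuronal gene, gave 45 and 9, and Wt1, Upk3b, Upk1b and Bnc1 were at 0.

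Hepatocyte genes placed the members at the portal side of the lobule. The periportal list was at 12910 CPM in the WT members against 10336 in the other spots, and at 11591 against 9156 CPM in C75S. Of its 14 genes 1 was more than 2-fold higher in both sections, the mitochondrial aldehyde dehydrogenase Aldh1b1 (1.29 and 1.19). The pericentral list was at 4529 against 9433 CPM in WT and at 4336 against 8620 CPM in C75S. Of its 11 genes 3 were more than 2-fold lower in both, namely Cyp2e1 (-1.07 and -1.0), the ornithine aminotransferase Oat (-1.08 and -1.02) and the glutamate transporter Slc1a2 (-1.12 and -1.05). Albumin (Alb) was at no lower level than elsewhere, with ratios of 0.15 and 0.21, so member spots still held hepatocyte RNA.

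The ratios depended on which spots the members were set against. The most periportal of the other spots (425 in WT and 409 in C75S) were set against the members. They were chosen by the UMIs of Cyp2f2, Hal, Gls2, Hsd17b13 and Pck1 as a share of those and Cyp2e1, Cyp1a2 and Oat. The spots with the most connective tissue signal but under 6 rule UMIs (182 and 114, chosen on Col1a1, Col1a2, Col3a1, Dpt and Mgp) were set against the members as well. Against the connective tissue spots Sox9 had log2 ratios of 2.60 (1.92 to 3.35) and 1.65 (0.92 to 2.47), Cldn7 3.75 and 2.81, and Scara3 2.80 and 2.66. Genes of stroma, which had chosen these spots in part, stood closer, with the matrix list as a whole at 0.46 and -0.13 and the smooth muscle list at -0.14 and 0.01. The antigen presentation list was at 0.46 and 0.25, against 1.19 and 0.71 over all other spots. The connective tissue spots were not on the portal side of the lobule as a whole, since their pericentral list was at 9794 CPM in WT and 11130 CPM in C75S, and the members were at -1.11 and -1.36 against them. Against the periportal spots the matrix list was at 1.88 and 1.13. The pericentral list was at 0.69 and 0.58, but the periportal spots had been chosen in part for few UMIs of Cyp2e1, Cyp1a2 and Oat. Higher values of this list in members were favoured by that choice and say nothing further about the members.

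**Figure D4:**
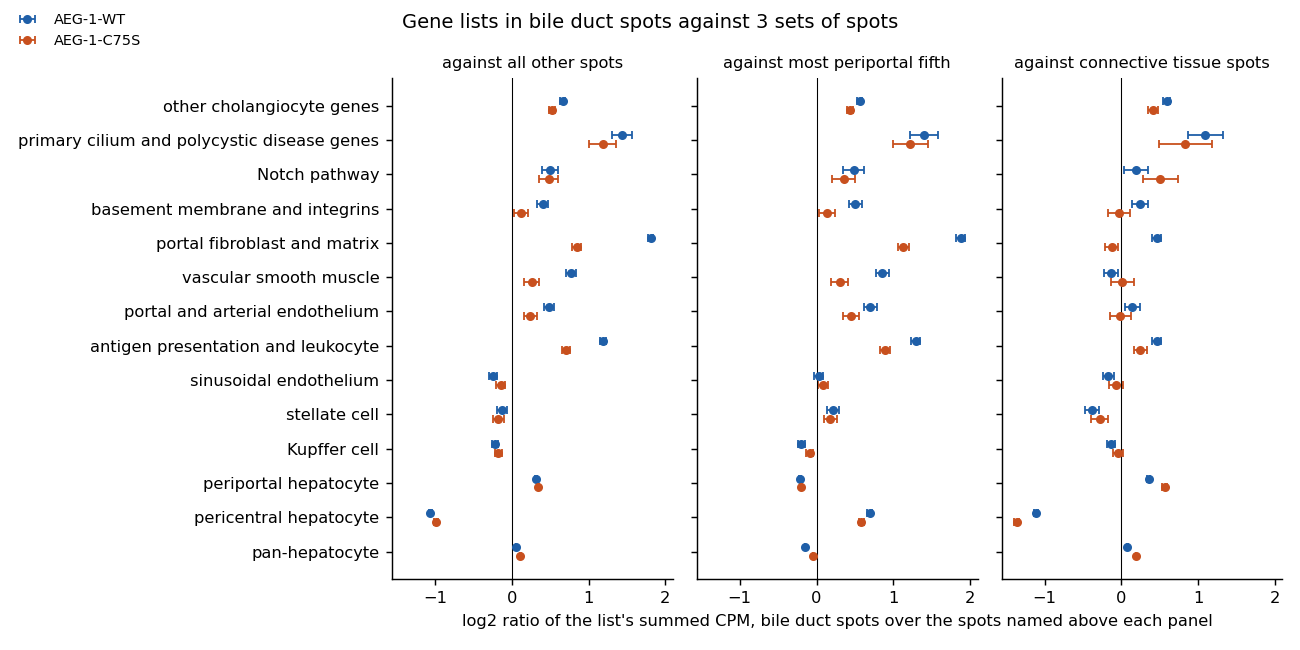
Log2 ratio of the summed CPM of 14 gene lists in bile duct spots over all other spots (left), the most periportal spots (middle) and connective tissue spots (right), WT in blue and C75S in orange, bars giving 95% intervals for counting error. The matrix list goes from 1.81 and 0.85 at the left to 0.46 and -0.13 at the right, while the summed cholangiocyte list, to which Clu gave the most UMIs, lies between 0.41 and 0.66 in all panels.

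Members were far from uniform. The summed matrix list of single WT members ran from 274 CPM through a median of 1100 to 36244 CPM, with 10% of the spots above 4767. In C75S it ran from 157 through 862 to 10098 CPM, with 10% above 2033. The cholangiocyte list was narrower, from 1381 to 11243 CPM with a median of 2720 in WT and from 1409 to 8495 CPM with a median of 2437 in C75S. Of the members, 57.7% in WT and 43.0% in C75S lay above the 90th percentile of the other spots for the matrix list, and 75.8% and 64.0% for the cholangiocyte list. None of the WT members and 1 of the C75S members did so for the pericentral list. Over the 182 and 114 members, which share their library and depth scaling, the matrix list went with the antigen presentation list (Spearman's rho 0.63 and 0.59) and with the rule genes (0.54 and 0.63).

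For the comparison of genotypes, UMIs were summed over the members of each section, 4120539 in WT and 2731987 in C75S. Of 6596 genes with at least 100 UMIs in members, 105 (1.59%) were more than 1.5-fold higher and 457 (6.93%) more than 1.5-fold lower in C75S. In the other spots the same genes gave 91 (1.38%) higher and 146 (2.21%) lower. The split moved with the scaling, to 165 higher and 288 lower with TMM factors, 173 and 282 after centring on the median gene, and 152 and 316 when the totals left out the 20 most abundant genes. The median log2 ratio of all 6596 genes was -0.10 in members and -0.04 in other spots. None of this was tested, as each genotype had 1 section.

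Most of the measured genes of the portal stroma were lower in the C75S members. Of 26 genes of the matrix list 23 had at least 100 UMIs in members of both sections together, and of these 19 were more than 1.5-fold lower in C75S and none higher, with a median log2 ratio of -1.41. In the other spots 11 of the 23 were lower and the median was -0.36. The summed list had a ratio of -0.97 (-1.04 to -0.91) in members, -0.39 (-0.47 to -0.31) in the connective tissue spots, chosen on 5 genes of the list, and -0.23 (-0.30 to -0.16) in the periportal spots. Col1a2 was at 144 CPM in the WT and 39.2 in the C75S members, a log2 ratio of -1.88 (-2.19 to -1.58), against 23.8 and 19.5 CPM in the other spots, a ratio of -0.29. Col1a1 was at 133 and 33.3 CPM in members (-1.99) and at 13.5 and 6.68 CPM elsewhere (-1.02). Among the 10 genes lowest in C75S relative to WT were Sfrp1, with 99 UMIs in the WT and 6 in the C75S members (-3.45, -4.93 to -2.28, against -2.06 in the other spots), Clec3b, with 101 and 7 (-3.26 against -2.11), and Fbln1, with 104 and 14 (-2.30 against -1.28). Many of these genes reached the minimum of 100 UMIs through the WT members, as 18 of the 26 had that many in WT alone and 9 in C75S alone, which favours lower values. With no minimum, an alternative chosen after seeing the data, 22 of 26 were more than 1.5-fold lower and none higher, with a median of -1.41. In the connective tissue spots Fmod was at -2.40 against -1.93 in members and C7 at -1.89 against -2.04. Col1a1 was at -0.65 (-1.04 to -0.27) there and Mgp at -1.51, but both genes had been used to choose these spots. The list was not uniform, as the small proteoglycans Dcn (-0.09) and Bgn (-0.16) and the collagen Col14a1 (0.08) were within 1.5-fold. Among genes with at least 200 UMIs in members, the members' ratio fell furthest below that of the other spots for Col1a2 (difference -1.59), the fibrinogen-like prothrombinase Fgl2 (-1.33), the stellate and fibroblast globin Cygb (-1.33), the collagen Col6a2 (-1.26) and the calcium-binding S100a6 (-1.10). In the connective tissue spots, Fgl2 was at -1.57 (members -1.09), Cygb at -0.81 (-1.6), Col6a2 at -0.72 (-1.62) and S100a6 at -0.53 (-1.0), so lower values in C75S were not limited to members. For all 6596 genes this difference had a median of -0.05, with 5% of genes below -0.51.

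Within members, the matrix signal was lower in C75S in each of 3 ranges of the rule sum. The sum is not scaled to depth, and C75S spots were deeper than WT spots. Their median total UMIs were 24728 against 22287 at 6 or 7 rule UMIs and 32032 against 16962 at 8 or 9. At 10 to 19 they were 24118 against 19118, and at 20 or more 25638 against 20378. An equal sum was thus mostly a smaller share of a spot's UMIs in C75S, and this limit also holds for matching on rule UMIs. In spots with 6 to 9 rule UMIs the summed matrix list was at 1054 CPM in WT and 678 CPM in C75S, a log2 ratio of -0.64 (-0.76 to -0.52). In spots with 10 to 19 it was at 2072 and 1052 CPM (-0.98), and with 20 or more at 2993 and 1538 CPM (-0.96). The summed cholangiocyte list, to which Clu gave 6059 of 11538 UMIs in the WT and 3976 of 7020 in the C75S members, was at -0.03, -0.05 and -0.15 in the same spots. In the spots with 20 or more rule UMIs single ductal genes differed in this, with Cldn7 at 51.4 in WT and 24.2 CPM in C75S, Ehf at 43.7 and 17.1 CPM and Bicc1 at 88.2 and 49.9 CPM, but Scara3 at 66.8 and 67.0 CPM and Sox9 at 71.9 and 65.6 CPM. In spots with no rule UMI the summed matrix list was at 509 and 513 CPM, while Col1a1 was at 11.0 and 5.55 CPM, Dpt at 7.87 and 4.3 CPM and Mgp at 5.75 and 3.11 CPM. With members of both sections matched on their rule UMIs, the median of the matrix genes was -1.26, and matched on total UMIs it was -1.38.

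Some matrix genes were concentrated in few WT spots and others were not. The 5 WT members with the most Col1a1 held 42.7% of its 546 UMIs, and the highest spot alone held 59. The corresponding 5 C75S members held 29.7% of 91 UMIs, with 8 in the highest. Without the highest spot of each section the ratio of Col1a1 was -1.95. For Col1a2 the 5 highest WT members held 47.7% of 593 UMIs, with 72 in the highest, and the 5 highest C75S members 16.8% of 107. Col1a2 was detected in 57.1% of the WT and 57.0% of the C75S members, with a median of 1 UMI per spot in both. Without the highest spot of each section its ratio was -1.76. Of Gas6, the most abundant gene of the list, the 5 highest WT spots held 12.5%, of Dcn 12.7% and of Dpt 23.4%. Col1a1 was detected in 95 of 182 WT and 48 of 114 C75S members, shares of 52.2% and 42.1%. The C75S members had the higher median depth but also the lower 10th percentile (8818 against 13621 UMIs). With every spot thinned to 3000 UMIs, the shares with Col1a1 were 20.9% (15.2 to 27.5) in WT and 8.77% (4.29 to 15.5) in C75S. The thinned shares with Mgp were close to each other, at 21.98% (16.19 to 28.7) in WT and 19.3% (12.51 to 27.75) in C75S. At full depth Mgp was detected in 63.2% of the WT and 44.7% of the C75S members, and its log2 ratio of C75S over WT in members was -1.41. The thinned shares rest on few spots, 38 and 10 with Col1a1 and 40 and 22 with Mgp, and the Col1a1 intervals overlapped slightly. They do not settle whether the genes differ in this.

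Smooth muscle, red blood cell and mesothelial genes were also lower in the C75S members. The smooth muscle list had 14 of 14 genes in the tables, none at 0 in members, with Cald1 the most abundant. It was at 521 CPM in the WT and 345 in the C75S members. Of its 7 measured genes 4 were more than 1.5-fold lower, against 6.93% of all genes, with a median of -0.65. In WT alone 6 of its genes had 100 UMIs in members and in C75S alone 2. With no minimum 9 of 12 were lower and the median was -1.50. The summed list was at -0.59 (-0.71 to -0.48) in members, -0.74 (-0.88 to -0.60) in the connective tissue spots and -0.08 in the other spots. Acta2 had 154 UMIs in 44 WT members and 12 UMIs in 9 C75S members, a log2 ratio of -3.09 (-4.07 to -2.24), and 31 of the 154 were in 1 spot. It was as low in the other spots of C75S, at -3.31. The red blood cell list (6 of 7 genes in the tables, 1 of them at 0 in members, Hbb-bs the most abundant) was at 1189 and 578 CPM, and all 3 measured genes were lower, with a median of -1.05. That value was 0.11 when each spot had the same weight, and Hbb-bs had 593 of its 3165 WT UMIs in 1 spot. Over the ranges 6 to 9, 10 to 19 and 20 or more rule UMIs the smooth muscle list was at -0.61, -0.74 and -0.32 and the red blood cell list at -1.30, -1.0 and -0.61, which were not the courses of the matrix list. The mesothelial list was at -1.84 (-2.87 to -0.94) in members and -0.05 in the other spots, and in WT it reached 32.5 CPM at 20 or more rule UMIs. The part of these lists in the matrix difference was not tested.

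**Figure D5:**
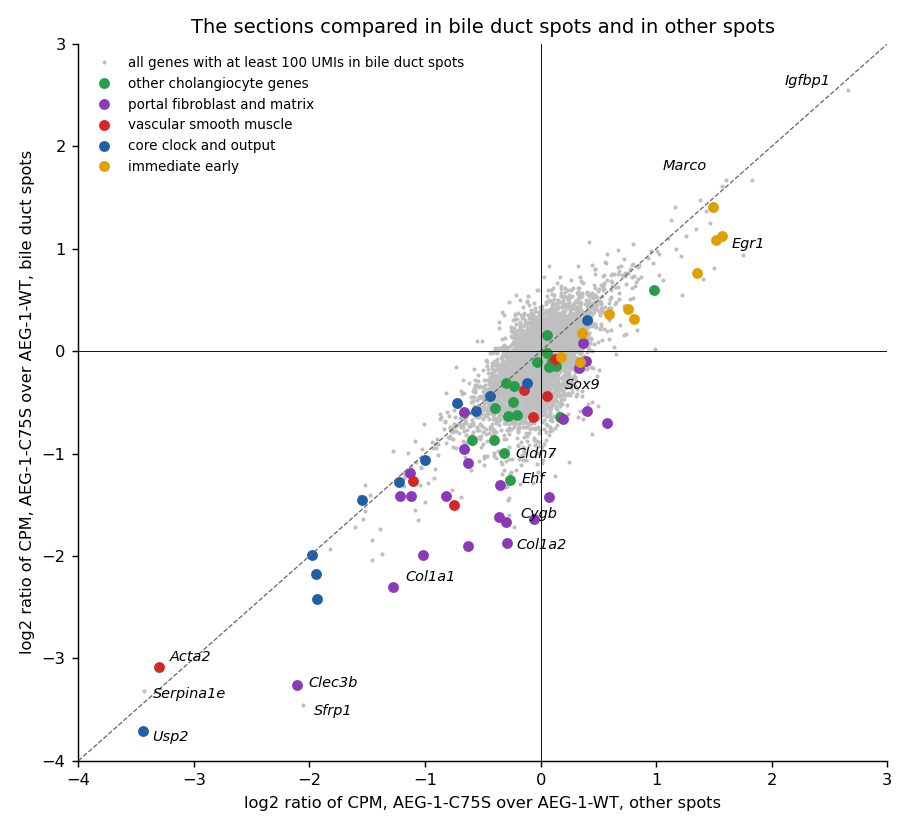
Log2 ratio of CPM in C75S over WT, other spots on the x axis and bile duct spots on the y axis, each dot a gene with at least 100 UMIs in bile duct spots, lists coloured and the dashed line marking equal ratios. Most genes lie along the line, including Usp2 (-3.44 and -3.70) and Igfbp1 (2.66 and 2.55), whereas Col1a2 lies well below it (-0.29 and -1.88).

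Ductal genes had a smaller median difference than matrix genes. Of 18 cholangiocyte genes measured in members 7 were more than 1.5-fold lower and 1 was higher in C75S, against 6.93% and 1.59% of all genes, with a median of -0.42 against -0.22 in the other spots. With no minimum 15 of 27 were lower and the median was -0.62. Sox9 had a ratio of -0.15 (-0.53 to 0.22). Ehf had -1.26 (-1.99 to -0.58) and Cldn7 -0.99 (-1.58 to -0.44). Onecut1, a factor of both hepatocytes and ducts, was the cholangiocyte gene that was higher, at 0.60 in members and 0.98 elsewhere. Of the 2 measured genes of the cilium list, Pkhd1 was at -1.09 (-1.55 to -0.64) and Glis3 at -0.13 (-0.69 to 0.42). With no minimum 5 of 14 cilium genes were lower and 0 higher, and the median was -0.25. The 5 measured Notch genes were all within 1.5-fold, with a median of -0.08. Of 8 YAP and TGF-beta genes 4 were lower, including Ccn2, at -0.77 (-1.21 to -0.33) against 0.09 in the other spots, and Tead1, at -1.09 (-1.76 to -0.47) against 0.01. In WT members alone 5 genes of this list had 100 UMIs and in C75S members alone 3, which favours lower values. With no minimum 6 of 13 were lower and 0 higher, and the median was -0.41.

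Against shares of 6.93% lower and 1.59% higher among all genes, leukocyte and macrophage genes gave 1 call each at the minimum of 100 UMIs. With no minimum 6 of 20 antigen presentation and leukocyte genes were lower and 0 higher, and 2 of 11 Kupffer cell genes were higher and 0 lower. Of 9 antigen presentation and leukocyte genes 1 was lower in the C75S members, the chemokine Ccl5 (-0.81, against 0.44 in the other spots), and Cd74 was at -0.38 in members and 0.17 elsewhere. The summed antigen presentation list was at -0.32 (-0.38 to -0.25) in members and 0.16 (0.14 to 0.19) in other spots, with ratios of -0.10 (-0.22 to 0.02) at 6 to 9 rule UMIs, -0.60 at 10 to 19 and 0.03 (-0.07 to 0.12) at 20 or more. Of 10 Kupffer cell genes 1 was higher, the scavenger receptor Marco, at 29.1 CPM in the WT and 92.6 in the C75S members, and its ratio was 1.67 in members and 1.60 in other spots. The Kupffer list as a whole was at 1386 and 1816 CPM in members and at 1609 and 2048 CPM elsewhere, so it was higher across the C75S section. The immunoglobulin gene Ighm had -1.06 in members, but 78 of its 195 WT UMIs were in 1 spot, and without the highest spot of each section the ratio was -0.40.

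Several of the largest single differences in members were of like size in the rest of the section. The deubiquitinase Usp2, an output of the circadian clock, had 177 UMIs in the WT and 9 in the C75S members, with log2 ratios of -3.70 in members and -3.44 in other spots. Of 12 clock genes 8 were lower in members and 8 in other spots, against 6.93% and 2.21% of all genes. The medians were -1.17 and -1.12. In WT members alone 11 clock genes had 100 UMIs and in C75S members alone 5. With no minimum 8 of 16 were lower and 2 higher in members, and the median was -0.55. Serpina1e, one of several nearly identical antitrypsin genes whose probes may not separate them fully, had -3.32 and -3.43. Igfbp1, an insulin-like growth factor binding protein induced by fasting, was highest in the other direction, at 41.3 and 242 CPM in members, with 2.55 there and 2.66 elsewhere. Of 10 immediate early genes 4 were higher in members and 7 in other spots, against 1.59% and 1.38% of all genes, with medians of 0.39 and 0.78. With no minimum 8 of 16 were higher and 2 lower in members, and the median was 0.57. Egr1 had 1.13 (0.97 to 1.29) in members against 1.57. Mtdh itself was at 75.5 and 76.5 CPM in members (0.02, -0.24 to 0.28), and its level does not read out the amino acid change.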

How the data were processed

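The submitters' processing notes name Space Ranger 2.0.1 and the mm10 build. The authors deposited UMI counts per gene and spot, 1 table per section, as raw counts with no normalization. The tables held 19465 genes, 42618523 UMIs in 2316 spots (AEG-1-WT) and 41892649 UMIs in 2167 spots (AEG-1-C75S). No columns of other samples were found (0).

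Spots over 50000 UMIs were left out (7 and 4), as the rule set, and no doublet caller was run, since a spot holds several cells. Counts were summed over spots and given as CPM. Log2 ratios carry exact binomial 95% intervals, shares of spots Clopper-Pearson intervals and single levels exact Poisson intervals. Capture also varies between spots, which these intervals do not cover. With 1 section per genotype no test was run and no p-value is given. Calculations used Python 3.11.15, numpy 2.4.6, scipy 1.17.1, pandas 2.3.3 and edgeR 4.0.16 (TMM factors only), and were tested on simulated data. Members, rule and gene lists were chosen with earlier results of these data known.

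Genes with at least 100 UMIs over the spots compared entered a comparison. Named were all genes of the 28 lists and, with at least 100 UMIs in members, the 20 highest and 10 lowest in both sections, the 10 largest differences of AEG-1-C75S from AEG-1-WT each way, the 5 genes at each end of the difference between members and other spots (at least 200 UMIs), and Mtdh. Krt18, Anxa13 and 8 other list genes were not analysed here. Positions of genes come from RefSeq annotation of GRCm38.p6, matched by symbol. Alternatives changed the rule, gene minimum, scaling, spot weights, comparison spots and single spots.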

Additional observations from a re-analysis of the deposited data

Results flagged for a closer look

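The spots above 50000 UMIs, which entered no comparison, held ductal signal as well: 3 of 7 in WT and 2 of 4 in C75S had 6 or more rule UMIs. The highest sums among them were 96 and 50. With these spots included, 7.99% and 5.35% of spots were members.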

How the results depend on the processing

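No paired analysis was possible because each genotype has 1 section. The order of the sections in the share of members was the same under every rule tried: 12.04% in WT and 9.52% in C75S at 4 or more UMIs, 5.11% and 2.82% at 10 or more, and 3.29% and 1.62% without Spp1. The 275 genes higher in members became 172 at 4 or more UMIs, 425 at 10 or more, 441 without Spp1, 440 and 159 at gene minimums of 50 and 200 UMIs, 152 against the most periportal spots, 36 against connective tissue spots and 87 with the minimum set in members (chosen after seeing the data). The 17 lower genes became 8 at 4 or more UMIs, 40 at 10 or more, 44 without Spp1, 30 with the rule per 10000 UMIs, 30 with TMM factors, 28 and 9 at the gene minimums, 0 against periportal spots and 5 with the minimum in members.

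In members, 105 genes higher in C75S became 165 with TMM factors, 173 after centring, and 177 and 63 at gene minimums of 50 and 200 UMIs. The 457 lower became 288, 282, 879 and 172 in the same order, and 251 without Spp1. The median of the matrix genes was -1.41 and at its smallest -1.01, at 10 or more rule UMIs. The red blood cell median turned from -1.05 to 0.072 with the rule per 10000 UMIs and to 0.11 with equal weight per spot. The mesothelial median in C75S, which rested on 1 gene, turned to -0.32 without Spp1. Against periportal spots Cyp2e1 turned to 0.70 and 0.59 (WT and C75S), Oat to 0.95 and 0.88 and the pericentral median in WT to 0.70. Low counts of Cyp2e1 and Oat had been part of the choice of these spots. Against connective tissue spots Acta2 (-0.54) and the smooth muscle median (-0.22) turned in WT, and Dpt (-0.24), Col1a1 (-0.52) and Col1a2 (-0.89) in C75S. The cause was not tested for any of these changes. Over all single genes and lists under alternatives, 1693 values stayed within their counting interval or within 0.1 on the log2 scale, 551 moved further and the 13 above turned. Weak genes are limited by depth: Acta2, with 12 UMIs in the C75S members, had an interval from -4.07 to -2.24.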

Other observations

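The nerve and Schwann cell list had 50 UMIs in the WT and 16 in the C75S members, 12.1 and 5.86 CPM against 2.49 and 1.90 CPM in the other spots. The neutrophil list had 30 and 45 UMIs. None of 11 NF-kB and chemokine genes and none of 9 cell cycle genes was 2-fold higher in members of both sections, and of 7 genes of lipid-associated macrophages 1 was. The mucosal immunoglobulin list had a median of 0.27 and 0.14.

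Genes of palmitoylation, the modification that the C75S protein lacks at this residue, were at similar levels in member and other spots, with none of 9 past 2-fold. Of 8 measured in members 2 acyltransferases were more than 1.5-fold lower in C75S, Zdhhc6 (-0.76) and Zdhhc5 (-0.71), against 6.93% of all genes, and the list's median was -0.25 against -0.03 in the other spots. In WT members alone 6 genes of the list had 100 UMIs and in C75S members alone 4, which favours lower values. With no minimum 2 of 9 were lower and 0 higher in members, and the median was -0.08. Some of the genes highest in the C75S members relative to WT were also higher in the other C75S spots: Gadd45g, a stress-induced growth inhibitor, had 1.67 in members and 1.83 in other spots, the acute-phase gene Orm3 1.41 and 1.17, and Igfbp2 1.28 and 1.13. Cyp7a1, the rate-limiting enzyme of bile acid synthesis from cholesterol, was lower in members than elsewhere (-0.84 and -1.23 in WT and C75S) and had a ratio of C75S over WT of -1.84 in members and -1.46 elsewhere.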
